A study of Mus musculus with 6 samples.

Results

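The 10 cadherin genes described here, Cdh2, Cdh4, Cdh6, Cdh8, Cdh10, Cdh11, Cdh12, Cdh13, Cdh18 and Cdh20, were taken as a fixed list of cadherins of cortical neurons from 19938 genes measured in the embryonic mouse neocortex. Each was read from the probe set named for that gene alone, and where a gene had more than 1, from the one with the highest mean over the 6 arrays. All 10 were measured. The arrays compared 3 Bcl11aΔflox/Δflox mutants, labelled as Bcl11a knockout, with 3 Bcl11a+/+ controls, labelled as wild type, at embryonic day 14.5. The series text describes separate RNA preparations for the embryos, so each array stands for 1 embryo. The labels name the allele as the deleted form of a floxed Bcl11a gene. They do not say which Cre deleted it, in which cells, on which strain background or in embryos of which sex.

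Cadherins are calcium-dependent adhesion proteins of the cell surface. Classical cadherins bind like molecules on the neighbouring cell through their outermost repeat, and their cytoplasmic tails bind catenins, which connect them to actin. In the developing cortex N-cadherin holds radial glia together at the ventricular surface and takes part in the radial migration of neurons, and other cadherins are expressed in area-specific and layer-specific patterns. By sequence, Cdh2 and Cdh4 are type I classical cadherins, and Cdh6, Cdh8, Cdh10, Cdh11, Cdh12, Cdh18 and Cdh20 are type II. Cdh13, or T-cadherin, is held in the membrane by a GPI anchor and has no catenin-binding tail, so it is not a classical cadherin in the strict sense, although it stands in the list. Bcl11a encodes a zinc finger protein that regulates transcription in projection neurons of the cortex, and the study asked how its loss affects their migration.

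Upstream sequences of RefSeq (GRCm38.p6) were at hand for 6 of the 10 genes, and those of Cdh10 and Cdh8 are shown because these were the 2 genes among the 6 whose mutant and control arrays did not overlap. The choice was made after their values were seen. Each is the 250 bases before the annotated start, 5′ to 3′ on the gene's strand, and the capitals mark CG dinucleotides. The Cdh10 sequence lies at chr15:18820079-18820328 on the plus strand and the Cdh8 sequence at chr8:99416472-99416721 on the minus strand.
Cdh10: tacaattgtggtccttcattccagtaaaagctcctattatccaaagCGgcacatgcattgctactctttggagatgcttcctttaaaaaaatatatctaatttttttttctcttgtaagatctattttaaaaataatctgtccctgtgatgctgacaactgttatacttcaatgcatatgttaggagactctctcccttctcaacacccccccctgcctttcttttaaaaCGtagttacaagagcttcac
Cdh8: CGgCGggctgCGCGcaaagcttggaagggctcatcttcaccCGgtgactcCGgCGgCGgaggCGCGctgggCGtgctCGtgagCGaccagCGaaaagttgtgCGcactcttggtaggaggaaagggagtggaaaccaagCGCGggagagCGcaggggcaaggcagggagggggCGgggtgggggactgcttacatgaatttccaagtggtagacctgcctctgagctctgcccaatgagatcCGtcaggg
The Cdh8 sequence was 64.4% G or C and held 20 CG dinucleotides, a count that 83.7% of the 32851 RefSeq promoters of this length had or stayed below. The Cdh10 sequence was 36.8% G or C and held 2, which 29.0% of promoters had or stayed below. The median promoter held 6. The letters TGACCA, which BCL11A binds in human erythroid cells, were searched on both strands. None of the 6 cadherin sequences (Cdh6, Cdh8, Cdh10, Cdh12, Cdh18 and Cdh20) held them, and 11.4% of all promoters did. These are descriptions of the letters in 1 short window per gene, and no binding was measured here.

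None of the 10 cadherins passed the threshold, an adjusted p under 0.05 in a limma fit across all genes. The same fit called 57 of 19938 genes, or 0.286%, of which 0.246% were higher and 0.0401% lower in mutants. At an adjusted p under 0.1 Cdh4 was the 1 cadherin called, against 0.537% of all genes, with 0.481% higher. At an unadjusted p under 0.05, 3 of the 10 were higher in mutants and none was lower, where 6.05% of all genes passed, 4.53% higher and 1.52% lower. The 3 genes were Cdh4, Cdh10 and Cdh8, and in each of them the lowest mutant array lay above the highest control array. The groups did not overlap, with mutants higher, for 7.69% of all genes, with mutants lower for 2.85%, and for 10.5% in either direction. Of the 10 cadherins 6 had positive differences, against 60.3% of all genes. Their median log2 difference, mutant minus control, was 0.04, against 0.02 over all genes. The list was drawn up with earlier results of these arrays known, so these counts describe the genes and do not test the list.

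**Figure D1:**
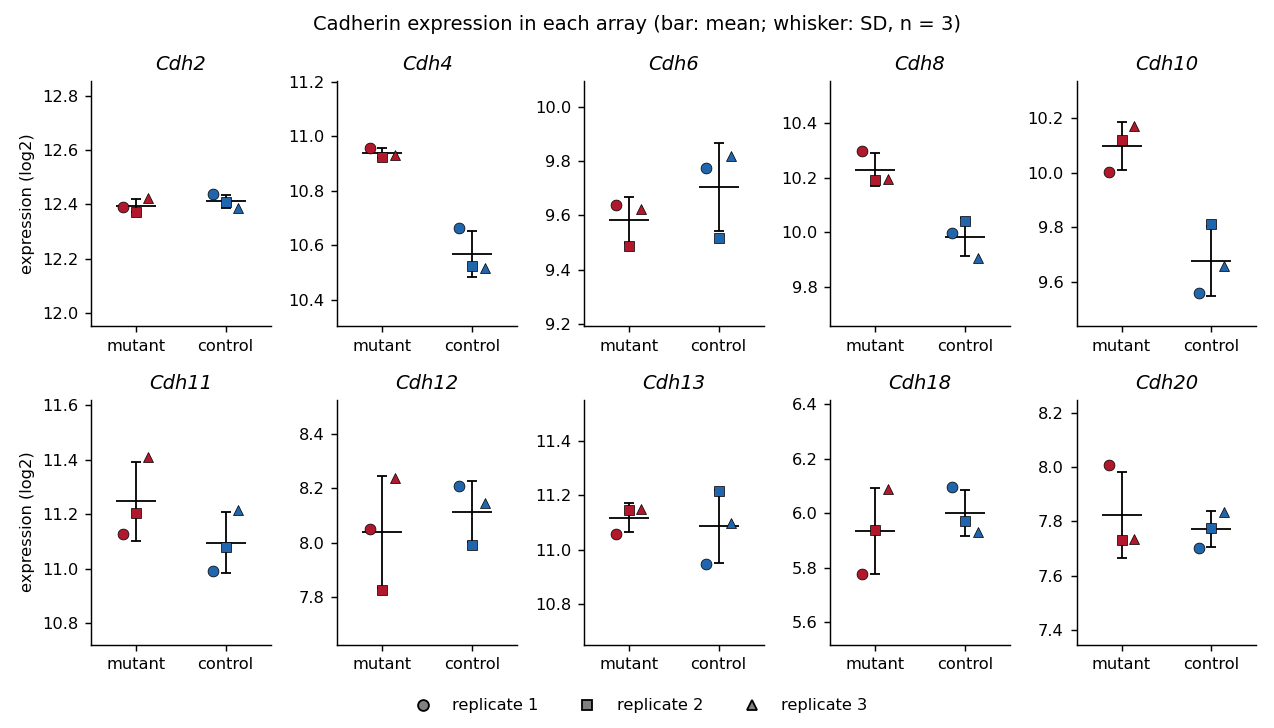
Expression of the 10 cadherins in each array, in log2 units, with mutants on the left and controls on the right of each panel. Every panel spans the same number of log2 units. Points are arrays, horizontal bars are means and whiskers are SDs of 3 arrays. Mutant points lie wholly above control points for Cdh4, Cdh8 and Cdh10.

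The type I gene Cdh4 (Entrez 12561), which encodes R-cadherin, read 10.96, 10.92 and 10.93 log2 units in mutant replicates 1, 2 and 3, against 10.66, 10.52 and 10.52 in control replicates 1, 2 and 3. The 3 mutant arrays lay within a narrow band, and control replicate 1 was the highest control. The means were 10.94 ± 0.02 in mutants and 10.57 ± 0.08 in controls (SD, n = 3 arrays each). The log2 difference was 0.37 ± 0.06 (SE), or 1.29-fold, with a 95% interval of 0.23 to 0.51. Its unadjusted p of 0.000301 was the 83rd smallest of all genes, and its limma adjusted p was 0.0723, short of the threshold. Cdh4 passed in 3 of 14 alternative fits, which were centring on array medians (adjusted p = 0.0489), a spread model with trend and robust settings (0.0246) and array weights (0.00914). In the other 11 its adjusted p lay between 0.0615 and 0.326.

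Cdh2 (Entrez 12558) encodes N-cadherin, the other type I member and the main cadherin of the radial glial junctions. It read 12.39, 12.37 and 12.42 log2 units in mutants, against 12.44, 12.41 and 12.39 in controls. All 6 arrays lay within a narrow band and the groups overlapped. The log2 difference was -0.02 ± 0.06 (SE, limma adjusted p = 1.0). Its 95% interval ran from -0.14 to 0.11, so a change beyond 1.10-fold in either direction lay outside it. The intervals of Cdh2 and Cdh4 did not touch, although the difference between these 2 genes was not itself tested.

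Among the type II genes, Cdh10 (Entrez 320873) had the highest difference. It read 10.002, 10.120 and 10.171 log2 units in mutants, against 9.558, 9.813 and 9.657 in controls. Mutant replicate 1 was the lowest mutant and control replicate 2 the highest control, with a gap between them. The means were 10.10 ± 0.09 in mutants and 9.68 ± 0.13 in controls (SD, n = 3 arrays each). The log2 difference was 0.42 ± 0.08 (SE), or 1.34-fold, with a 95% interval of 0.24 to 0.61 and a limma adjusted p of 0.121. It passed in none of the 14 alternative fits, where the lowest adjusted p was 0.0515.

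Cdh8 (Entrez 12564), a type II cadherin gene expressed in an area-specific pattern in the mouse cortex, read 10.301, 10.194 and 10.197 log2 units in mutants, against 9.999, 10.041 and 9.905 in controls. The means were 10.23 ± 0.06 in mutants and 9.98 ± 0.07 in controls (SD, n = 3 arrays each). Mutant replicate 1 stood above the other mutants, and without it the log2 difference was 0.21. With all arrays it was 0.25 ± 0.07 (SE), or 1.19-fold, with a 95% interval of 0.10 to 0.40 and a limma adjusted p of 0.304. Cdh8 passed in none of the 14 alternatives, where the lowest adjusted p was 0.168.

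Cdh6 (Entrez 12563) and Cdh11 (Entrez 12552) also mark areas and layers of the mouse cortex. Cdh6 read 9.64, 9.49 and 9.62 log2 units in mutants, against 9.77, 9.52 and 9.82 in controls. Replicate 2 was the lowest array of both groups, and the groups overlapped. The log2 difference was -0.12 ± 0.09 (SE), with a limma adjusted p of 1.0 and a 95% interval of -0.32 to 0.08. It was -0.21 without control replicate 2 and -0.06 without control replicate 3. Cdh11 read 11.13, 11.21 and 11.41 log2 units in mutants, against 10.99, 11.08 and 11.22 in controls. Replicate 3 was the highest array of both groups, and replicate 1 the lowest of both, although replicate numbers were not taken to pair the arrays. The log2 difference was 0.15 ± 0.09 (SE, limma adjusted p = 1.0), and its 95% interval ran from -0.05 to 0.36. It was 0.07 without mutant replicate 3 and 0.21 without mutant replicate 1. A further 3 probe sets were annotated to Cdh11 together with 2 other transcripts, and these differed by -0.03 each, with overlapping groups. Their signal cannot be assigned to 1 gene.

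The remaining type II genes, Cdh12 (Entrez 215654), Cdh18 (Entrez 320865) and Cdh20 (Entrez 23836), encode cadherins of the brain. Cdh12 read 8.05, 7.83 and 8.24 log2 units in mutants, against 8.21, 7.99 and 8.14 in controls, and its mutant arrays spread more widely than its controls. Cdh18 read 5.78, 5.94 and 6.09 in mutants, against 6.10, 5.97 and 5.93 in controls. Its probe set lay under the 25th percentile of all genes by mean level, where RMA compresses differences, and a second Cdh18 probe set differed by -0.03. Cdh20 read 8.01, 7.73 and 7.73 in mutants, against 7.70, 7.78 and 7.83 in controls. Its mutant replicate 1 was the highest of the 6 arrays, and the other mutants lay below 2 of the controls. The log2 differences of Cdh12, Cdh18 and Cdh20 were -0.08, -0.07 and 0.05, each with a limma adjusted p of 1.0. Each of these 3 differences turned its sign when 1 mutant array was left out, which was replicate 2 for Cdh12 and replicate 1 for the other genes.

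Cdh13 (Entrez 12554) encodes T-cadherin, known from subcerebral projection neurons of layer V. It read 11.06, 11.15 and 11.15 log2 units in mutants, against 10.95, 11.22 and 11.10 in controls. The mutant arrays lay inside the range of the controls. The log2 difference was 0.03 ± 0.08 (SE, limma adjusted p = 1.0), and its 95% interval ran from -0.15 to 0.21, or up to 1.16-fold higher in mutants.

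**Figure D2:**
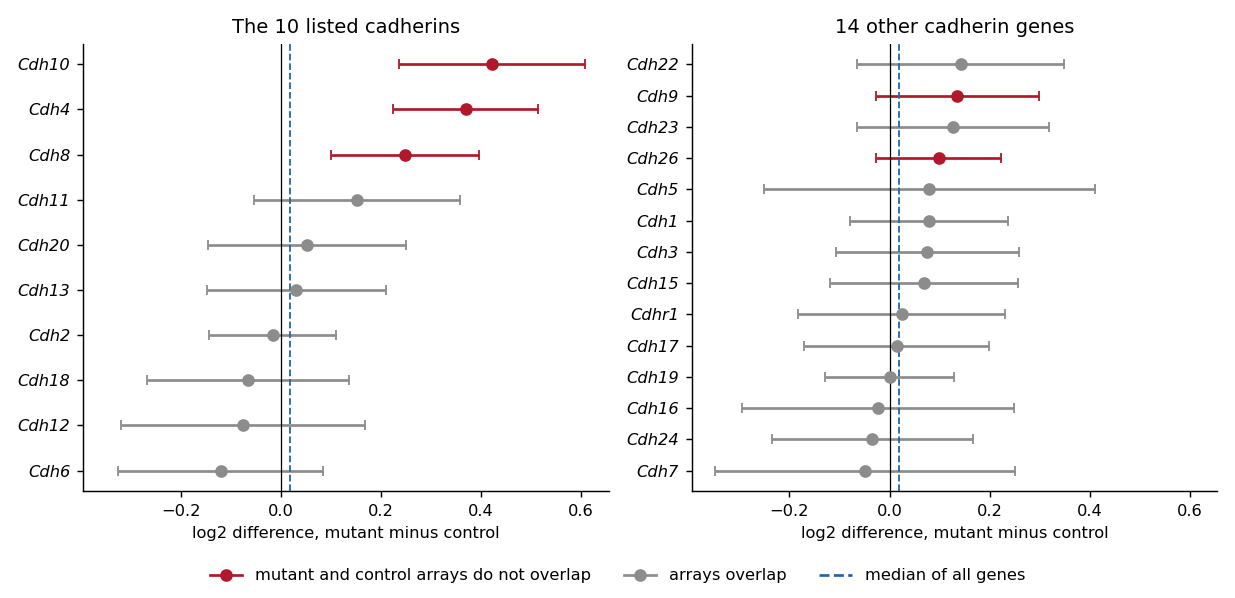
Log2 difference, mutant minus control, with its 95% interval from limma, for the 10 cadherins (left) and 14 other cadherin genes (right). Red marks genes whose mutant and control arrays did not overlap, and the dashed line is the median of all genes. Cdh10, Cdh4 and Cdh8 lie highest, at 0.42, 0.37 and 0.25.

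The 14 other cadherin genes measured on the arrays held none past the threshold and none with an unadjusted p under 0.05. Their log2 differences lay between -0.05 for Cdh7 and 0.14 for Cdh22, with a median of 0.07. Of these differences 11 were positive, against 60.3% of all genes. The groups did not overlap for 2 of them, both higher in mutants, against 7.69% of all genes with mutants higher. Cdh9, a type II cadherin, averaged 5.42 ± 0.08 log2 units in mutants and 5.28 ± 0.09 in controls (SD, n = 3 arrays each). Cdh26 averaged 5.95 ± 0.02 in mutants and 5.85 ± 0.01 in controls (SD, n = 3 arrays each). The limma adjusted p was 0.954 for Cdh9 and 0.983 for Cdh26. Like Cdh18, Cdh9 and Cdh26 lay under the 25th percentile of all genes by mean level, which was 6.03 log2 units. RMA compresses differences at such levels. Cdh5, which encodes the VE-cadherin of blood vessels, read 9.81, 9.15 and 9.34 log2 units in mutants, against 9.34, 9.33 and 9.41 in controls. Only mutant replicate 1 stood above the controls for Cdh5, as it did for Cdh20.

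Gene order offered a further view, since many of these genes lie side by side. On chromosome 15, Cdh6, Cdh9, Cdh10, Cdh12 and Cdh18 follow each other, with 1 tested gene between the last pair and none between the others. Within this run the log2 differences were -0.12, 0.14, 0.42, -0.08 and -0.07, so the genes on both sides of Cdh9 and Cdh10 had differences of the other sign. Cdh9 and Cdh18 lay under the 25th percentile of mean level, so their differences carry less weight in this run. On chromosome 8, Cdh8, Cdh11 and Cdh5 are neighbours with 1 tested gene between Cdh8 and Cdh11, and their differences were 0.25, 0.15 and 0.08. Around Cdh4 on chromosome 2, the 5 tested genes on each side differed by -0.01 to 0.10. None of the 10 tested genes around Cdh4, Cdh8 or Cdh10 passed the threshold. These cadherins, the members with the highest differences, were picked for this view after their values were seen. Standing above their neighbours therefore carries no weight. Among the 10 tested genes around each other member, only Necab2 near Cdh13 and Pam near Cdh20 passed, against 0.286% of all genes. Their differences were 0.55 and 0.50 (limma adjusted p = 0.0073 and 0.0454). Both were named because they passed, so their standing above the cadherin they neighbour carries no weight either.

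**Figure D3:**
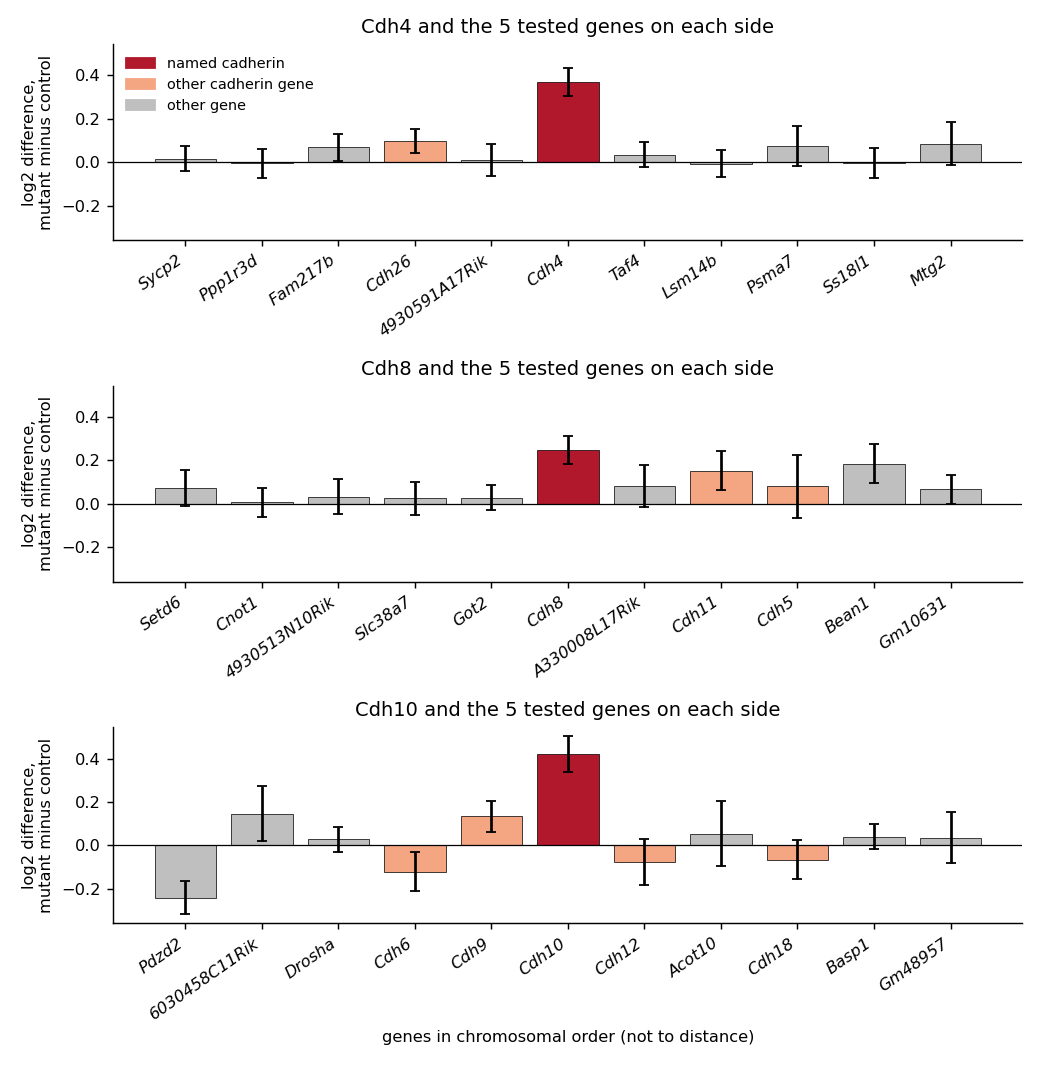
Log2 difference, mutant minus control, of Cdh4, Cdh8 and Cdh10 and of the 5 tested genes on each side, in chromosomal order and not to distance. Bars start at 0, whiskers are limma's standard errors, dark red is the named gene and light red another cadherin. In each panel the named gene has the highest value, 0.37, 0.25 and 0.42. The named genes were picked after their values were seen, as those with the highest differences among the listed cadherins.

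Genes of the cadherin junction were read from a separate list. Catenins tie cadherin tails to actin, and nectins with afadin form the accompanying junction. Of 19 such genes none passed, and 11 had positive differences, against 60.3% of all genes. The median log2 difference was 0.02, the same as over all genes. Groups did not overlap for 1 higher and 1 lower gene, against 7.69% and 2.85% of all genes. Jup, the plakoglobin gene, read 9.96, 9.92 and 9.90 log2 units in mutants, against 9.52, 9.75 and 9.85 in controls. Its groups did not overlap, and its log2 difference was 0.22 ± 0.09 (SE, limma adjusted p = 0.694). Pkp4, a catenin-related gene, was the 1 gene of the list that was lower without overlap, with 10.21 ± 0.07 log2 units in mutants and 10.33 ± 0.03 in controls (SD, n = 3 arrays each) and a difference of -0.12 (limma adjusted p = 0.928). Ctnnbip1, which encodes an inhibitor of beta-catenin's binding to TCF factors, differed by 0.19 (limma adjusted p = 0.906), with overlapping groups. The core catenin genes Ctnnb1, Ctnna2 and Ctnnd2 differed by -0.02, 0.04 and 0.01 (limma adjusted p = 1.0 each).

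A second list held enzymes and signalling genes that process, traffic or act beside cadherins. Of its 30 genes 28 were measured and none passed. Positive differences were seen in 18, against 60.3% of all genes, and the median was 0.04. Groups did not overlap for 2 higher genes and 1 lower gene, against 7.69% and 2.85% of all genes. Ptprk, a receptor tyrosine phosphatase of cell contacts, averaged 10.57 ± 0.06 log2 units in mutants and 10.36 ± 0.02 in controls (SD, n = 3 arrays each). Its groups did not overlap, and the log2 difference was 0.21 (limma adjusted p = 0.373). The groups also did not overlap for the receptor gene Fgfr1, with a difference of 0.11, or for Dab1, an adaptor of reelin signalling, with -0.09 (limma adjusted p = 0.979 and 1.0). Akap5, a scaffold protein gene, differed by 0.18 (limma adjusted p = 0.906). Adam10, which encodes the protease that sheds N-cadherin, differed by 0.04 (limma adjusted p = 1.0).

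The labelled tissue was checked against marker genes. The projection neuron gene Neurod6 read between 12.41 and 12.61 log2 units in mutants and between 12.49 and 12.54 in controls. Tbr1, a transcription factor gene of early cortical neurons, read between 12.23 and 12.26 in mutants and between 12.22 and 12.29 in controls. Of the 6 measured projection neuron genes Sox5 and Nfib were lower in mutants without overlap, by log2 differences of -0.10 and -0.06 (limma adjusted p = 1.0 each). The targeted gene Bcl11a averaged 11.41 ± 0.08 log2 units in mutants and 12.25 ± 0.05 in controls (SD, n = 3 arrays each, limma adjusted p = 0.00201). The position of the Bcl11a probes within the gene was not known here, so the remaining mutant signal cannot be read as intact transcript. Sema3c, the secreted semaphorin gene of the study's title, averaged 10.33 ± 0.11 in mutants and 9.06 ± 0.19 in controls (SD, n = 3 arrays each, limma adjusted p = 0.00201). Summed linear signals of 8 intermediate progenitor genes ran from 19600 to 20400 in mutants and from 17600 to 18900 in controls, with none past the threshold. In this list Sstr2, Eomes and Mfap4 were higher without overlap, by 0.27, 0.21 and 0.22, Gadd45g was lower without overlap, at -0.19, and the other 4 genes overlapped. Over all genes 7.69% were higher and 2.85% lower without overlap. A linear sum is weighted to the brightest genes. The sums of 9 measured ganglionic eminence and interneuron genes overlapped, at 4030 to 4650 in mutants and 3520 to 4300 in controls, with none past the threshold. Of these genes 8 had positive differences and 0 were higher without overlap, against 60.3% and 7.69% of all genes. For 14 meningeal and pericyte genes the sums were 6950, 4310 and 4100 in mutant replicates 1, 2 and 3, against 3960 to 4090 in controls, with none past the threshold. Of these genes 12 had positive differences and 4 were higher without overlap, against 60.3% and 7.69% of all genes. Dcn read 10.49, 8.32 and 7.27 log2 units in mutants, against 6.58 to 6.62 in controls (limma adjusted p = 0.471). Col1a2 differed by 0.49, also without overlap (limma adjusted p = 0.482). For 9 endothelial genes the sums were 3330 to 4470 in mutants and 3170 to 3680 in controls, with none past the threshold and the highest in mutant replicate 1. All 9 had positive differences and 1 was higher without overlap, against 60.3% and 7.69% of all genes. For 10 microglial genes the sums were 1660 to 1930 in mutants and 1350 to 1560 in controls, with none past the threshold. All 10 had positive differences and 5 were higher without overlap, against 60.3% and 7.69% of all genes. Csf1r and Fcrls differed by 0.29 and 0.45, without overlap (limma adjusted p = 0.335 and 0.404). Of 8 measured erythroid genes Hbb-bh1, Slc4a1, Hba-x, Kel, Rhag and Epb42 passed the threshold, all higher, against 0.246% of all genes. Their log2 differences were 5.02, 1.47, 1.38, 0.66, 0.62 and 0.55 (limma adjusted p from 5.92e-05 to 0.0493). All 8 were higher without overlap, against 7.69% of all genes. The sums were 12000 to 13800 in mutants and 5290 to 6670 in controls, with most of the signal from globin genes. No detection calls were used with these RMA values, so no marker was called absent.

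The meningeal, microglial and erythroid sums, and the intermediate progenitor sum through Sstr2, Eomes and Mfap4 but not Gadd45g, were higher in all mutant arrays than in any control, as were Cdh4, Cdh8 and Cdh10, and their part in these readings was not tested. The meningeal sums were nearly tied at the edge, with 4100 in mutant replicate 3 and 4090 in the highest control. Without mutant replicate 1, which held the most meningeal signal, the log2 differences of Cdh4, Cdh8 and Cdh10 were 0.36, 0.21 and 0.47. The median log2 difference of the meningeal list was 0.05 without that array and 0.27 with all arrays. The microglial and erythroid sums of mutant replicates 2 and 3 still lay above every control. Leaving out that array therefore lowered the meningeal difference but did not remove the microglial and erythroid ones. Among the mutants, replicate 1 read highest for Cdh4, Cdh6, Cdh8 and Cdh20, and lowest for Cdh10, Cdh11, Cdh13 and Cdh18. It lay between the others for Cdh2 and Cdh12. In whole tissue, fewer cells of a type and less RNA per cell cannot be told apart. The sums of the other lists overlapped, and none of their genes passed. For 8 radial glia genes they were 30100 to 31000 in mutants and 30700 to 31200 in controls. For 6 measured projection neuron genes they were 29800 to 30800 in mutants and 30300 to 31200 in controls. For 8 Cajal-Retzius genes they were 3210 to 3580 in mutants and 3510 to 4620 in controls. Within that list 4 genes were lower and 2 higher at an unadjusted p under 0.05, against 1.52% and 4.53% of all genes. Calb2 at -0.68 and Reln at -0.32 were lower without overlap, and Lhx1 at 0.20 and Nhlh2 at 0.31 higher without overlap (limma adjusted p = 0.179, 0.499, 0.498 and 0.575). For 8 genes listed as thalamic the sums were 7800 to 9100 in mutants and 7280 to 8170 in controls. Most of this signal came from Lhx2, at 12.56 log2 units in mutants and 12.40 in controls, so the sum does not measure thalamic tissue. Lhx9, at 0.33 (limma adjusted p = 0.425), was the 1 gene of that list without overlap, against 10.5% of all genes. For 7 measured hippocampal and hem genes the sums were 3130 to 3220 in mutants and 3010 to 3280 in controls.

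**Figure D4:**
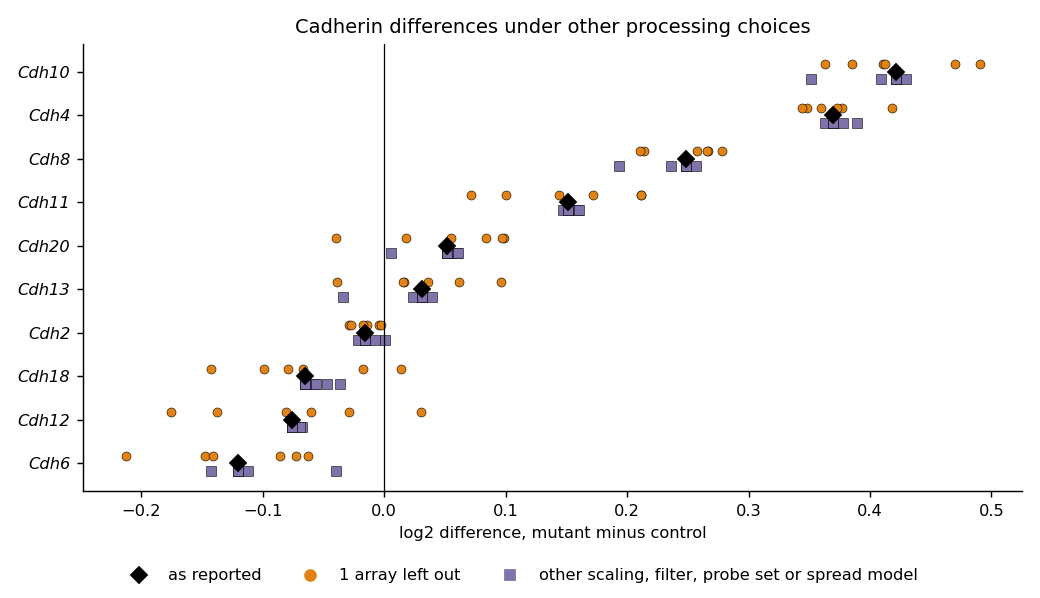
Log2 difference, mutant minus control, of each cadherin as reported (diamonds), with 1 array left out (circles) and under the other scaling, filter, probe set and spread choices (squares). The values of Cdh10, Cdh4, Cdh8 and Cdh11 are positive throughout, those of Cdh6 negative throughout, and those of the other 5 genes lie on both sides of 0.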

How the data were processed

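RNA of 6 neocortices was hybridised to Affymetrix Mouse Gene 1.0 ST arrays, 3 per group. The authors deposited log2 values, processed with Affymetrix Expression Console and RMA per the submitters' processing notes. Their versions, and the genome build, were not stated there. The log2 scale was inferred from RMA and from the range of 3.41 to 13.8. Array medians lay between 7.23 and 7.33, and correlations between arrays, across genes, between 0.995 and 0.998. RMA's quantile step would hide a shift of most genes, and arrays have no read depth, so their number limits precision. Levels of single genes were not ranked against each other, since probe sets differ in brightness. Mean levels served for a filter at the 25th percentile, and linear signals were added within marker lists.

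Probe sets were named through GEO's platform annotation and RefSeq (GRCm38.p6), which matched 21698 of 21789 probe sets with 1 symbol. The 1621 with several symbols and 12146 with none were left out. limma 3.58.1 (R 4.3.3) fitted all 19938 genes on 6 arrays without covariates, two-sided, with Benjamini-Hochberg adjustment over all genes and a threshold of 0.05. The fit was run on simulated data with changes larger than any cadherin difference here. That run does not show whether changes as small as these would be found. Adjusted p-values that round to 1.0 are printed so. RefSeq coordinates other than the printed sequences served only for gene order. The members, lists and tests were chosen with earlier results of these data known. All members, Bcl11a, Sema3c, any measured cadherin, and per list the genes past the threshold or else the 2 with the smallest p, were to be named. Other genes named, which are Ctnnb1, Ctnna2, Ctnnd2, Pkp4, Adam10, Fgfr1, Dab1, Neurod6, Tbr1, Mfap4, Gadd45g, Reln, Nhlh2, Lhx2, Necab2 and Pam, were chosen after their values were seen. Except for the projection neuron, intermediate progenitor, Cajal-Retzius, thalamic, meningeal and microglial lists, marker lists are given as sums, some with counts, with only genes past the threshold named.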

Additional observations from a re-analysis of the deposited data

How the results depend on the processing

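Of the 10 cadherins, 1 passed (Cdh4) with values centred on array medians, with trend and robust settings, with array weights and at an adjusted p under 0.1, 3 at an unadjusted p under 0.05, and 0 in each fit that left out 1 array and in the remaining alternatives. The cadherins with groups that did not overlap numbered 3 to 4 when 1 array was left out and 3 in each other alternative. The genes called among all those tested numbered 20 to 50 when 1 array was left out, 87 with trend and robust settings, 217 with array weights, 13 with every probe set tested singly, 107 with the adjusted p limit at 0.1 and 1207 with 0.05 as a limit on the unadjusted p. A replicate block, by the number in the labels, gave 34, and none of the cadherins passed. Deviations from the group means correlated at 0.03, -0.14 and 0.08 between arrays of like number, so the numbers were not taken to pair the arrays. No cadherin past the threshold in any alternative turned its sign. Among those that did not pass, the log2 difference turned to 0.00065 for Cdh2 with quantile normalization, and to -0.0335 for Cdh13 with array weights. When 1 array was left out it ran from -0.176 to 0.0300 for Cdh12 (positive without mutant replicate 2), from -0.0387 to 0.0959 for Cdh13 (negative without control replicate 1), from -0.143 to 0.0142 for Cdh18 (positive without mutant replicate 1) and from -0.0393 to 0.0988 for Cdh20 (negative without mutant replicate 1). The cause was not tested. The filter that left out genes under the 25th percentile of mean level dropped Cdh18. With 3 arrays per group, the 95% intervals of the 7 cadherins whose groups overlapped reach between 1.10-fold for Cdh2 and 1.28-fold for Cdh11.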
